A study of Gallus gallus with 4 samples.

Results

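Granulosa cells of the chicken ovary were compared between 2 stages of the preovulatory hierarchy, the F5 follicle and the F1 follicle. The hierarchy is the row of yellow, yolk-filled follicles in which F1 is the next to ovulate. Both libraries came from granulosa cells lying close to the germinal disc, the pale patch of oocyte cytoplasm that holds the nucleus, and these cells are called proximal. They are 2 of the 4 libraries of the study. The other two hold distal granulosa cells, which lie away from the disc, of the same follicle stages, and serve here as a second reading of the step from F5 to F1. The labels describe all cells as natural cells from hens aged 10 to 15 months, and name no treatment or genotype. The number of hens or follicles behind a library is not given there. RNA was selected by its poly-A tail in all libraries.

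Granulosa cells form the layer between the oocyte and the follicle wall. In birds they deposit the inner egg coat, make progesterone from cholesterol, and secrete inhibin and related hormones. As a follicle climbs the hierarchy, these cells are known to pass from control by follicle-stimulating hormone to control by luteinizing hormone, which acts through cyclic AMP, and to make more progesterone before ovulation. Yolk is held by the oocyte, while the granulosa layer spreads over its growing surface.

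Levels are given as FPKM, which divides a gene's fragments by its length and by the size of its library. The F5 proximal library rested on 16654793 reads and the F1 proximal library on 18020270, and the distal libraries on 17351242 and 13948790, as recovered from the deposited values. Differences between F1 and F5 were taken on the scale of log2(FPKM + 1) over the 11203 genes whose mean in the 4 libraries reached 1 FPKM, and the word member below means a list gene among these. A difference of 1 on this scale, 2-fold, was the size rule. Each side was 1 library, so no difference below has a replicate check or a p-value, and the rule describes these libraries. A fold printed for a gene is its FPKM ratio, and the 95% exact interval after it covers counting error only, not the spread between hens or follicles. Fewer cells of a type and less RNA per cell cannot be told apart in such bulk samples.

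By the size rule 500 genes were higher in F1 proximal cells, 4.46% of all tested, and 1103 were lower, 9.85%. The other 9600 lay within 2-fold. The median difference over all genes was -0.27, so most genes stood slightly lower in F1. ZP3, the main protein of the avian inner egg coat, took 1.98% of the reads in the F5 and 11.4% in the F1 proximal library, and its share lowers the FPKM of every other gene. With ZP3 left out of the library totals the median difference was still negative, so the share of ZP3 makes up only part of it. Median-ratio scaling, which sets the typical gene equal between libraries, multiplied each proximal F1 to F5 ratio by 1.24, a shift of 0.31 on the log2 scale. After it 733 genes were higher, 6.54%, and 656 lower, 5.86%. Each list count below is to be read beside these shares of all genes, as deposited or scaled alike. Higher genes made up 31.2% of those past the rule as deposited and 52.8% after scaling, so the balance of directions rests on the scaling. Folds are printed as deposited. A fold towards F1 is thus 1.24 times larger after scaling and a fold towards F5 is divided by 1.24, so genes less than 1.24-fold lower turn to higher.

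**Figure D1:**
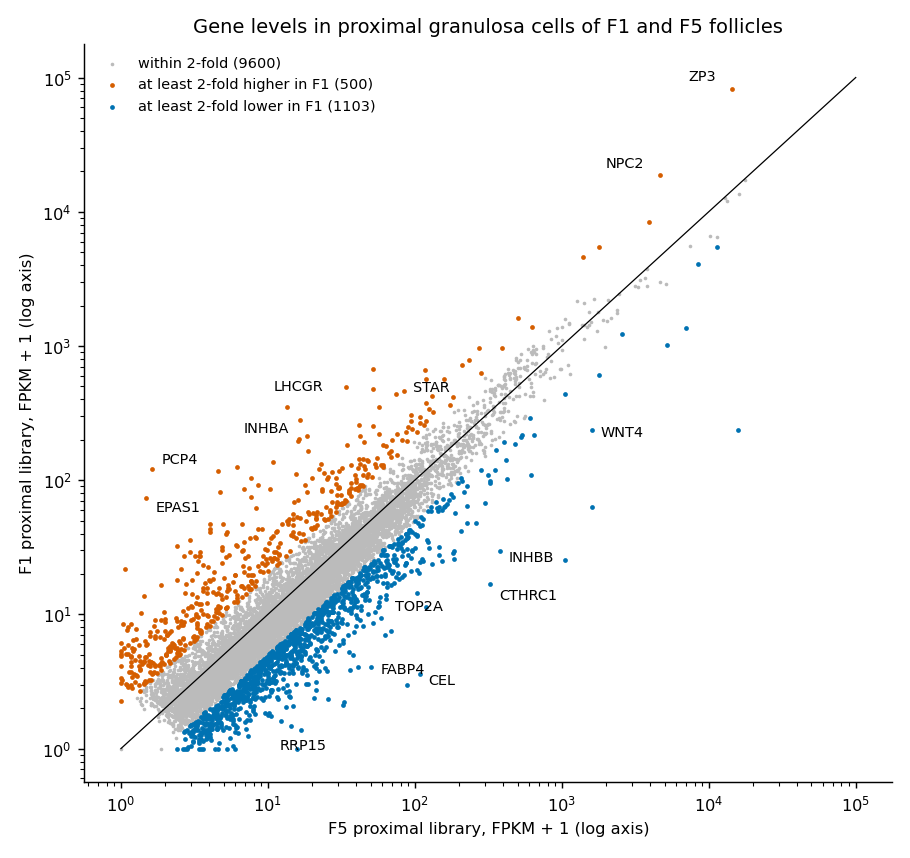
Each point is 1 of 11203 genes, with its level in the F5 proximal library on the horizontal axis and in the F1 proximal library on the vertical axis, both as FPKM + 1 on log axes. Orange points mark 500 genes at least 2-fold higher in F1, blue points 1103 at least 2-fold lower and grey points 9600 within 2-fold; the line marks equal levels.

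The labelled cell type was checked first. Of the 13 granulosa markers all were found, and 12 passed the filter on low values, with a summed level of 23385 FPKM in F5 and 94252 in F1, most of it ZP3. FOXL2, a transcription factor of granulosa cells, stood at 1055 and 1594 FPKM. INHA, the alpha subunit shared by inhibins, stood at 5100 and 2915 FPKM, and NR5A1, a regulator of steroid enzymes, at 405 and 569 FPKM. ZP1, another coat protein, was near 0 in both libraries. Markers of other cells follow with their levels. A 0 in these tables is not read as absence, since PSMC5, a proteasome subunit, and SPCS1, a signal peptidase subunit, which cells in general use, are also listed at 0 in all 4 libraries. Of 11 theca and stroma markers found, 3 passed the filter with a summed level of 17.8 and 13.8 FPKM. These were COL1A2 at 11.7 and 11.8 FPKM, NR2F2 at 3.49 and 1.77 FPKM and CYP17A1 at 2.59 and 0.135 FPKM. DCN and LUM, proteoglycans of fibroblasts, were the only 2 of the 11 listed at 0 in both. Of 15 leukocyte markers found, BLB1 alone passed, at 5.08 and 5.52 FPKM. CD4, SPI1 and C1QA were the only 3 of the 15 listed at 0 in both. Smooth muscle markers summed to 6.21 and 2.43 FPKM over 2 genes, MYH11 at 4.81 and 0.763 FPKM and MYLK at 1.40 and 1.66 FPKM. Surface epithelium markers summed to 35.5 and 29.1 FPKM over 3 genes. EPCAM was lower, at 29.0 and 21.7 FPKM. KRT19 and MSLN were slightly higher, at 4.19 and 4.66 FPKM and at 2.32 and 2.72 FPKM. Endothelial markers summed to 103 and 178 FPKM over 5 genes. Of these, CLDN5 (listed as cldn5) alone was higher in F1 as deposited, at 30.9 and 121 FPKM. The others were lower, EGFL7 at 51.2 and 44.5 FPKM, EMCN at 10.6 and 3.67 FPKM, PECAM1 at 5.31 and 3.88 FPKM and TIE1 at 5.10 and 4.38 FPKM. After scaling EGFL7 and TIE1 turned slightly higher. VWF, KDR and TEK stood at no more than 0.0486 FPKM. No erythrocyte marker was found by name.

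Oocyte transcripts were present near the germinal disc at both stages, and their sum was lower in F1. Of 13 oocyte and germ cell markers found, 6 were members, with a summed level of 60.5 FPKM in F5 and 26.1 in F1. In distal cells the sum was 15.5 and 2.24 FPKM. By the size rule 2 of the 6 were lower, BMP15 and ZP2, and 0 higher, as deposited and after scaling. BUB1B, which is also a mitosis gene, supplied 16.0 and 7.57 FPKM of the proximal sums and 12.1 and 1.89 FPKM of the distal ones. BMP15, a growth factor made by oocytes, stood at 6.78 and 1.93 FPKM, 3.52-fold lower (2.65 to 4.73). ZP2, an egg coat glycoprotein of the oocyte, stood at 28.8 and 8.62 FPKM, 3.34-fold lower (2.98 to 3.75). DAZL, a germ cell RNA-binding protein, stood at 3.81 and 2.80 FPKM and KPNA7, a nuclear import factor of oocytes, at 3.21 and 3.06 FPKM, both within 2-fold. KPNA7 turned slightly higher after scaling. NANOG, also a member, stood slightly higher in F1, at 1.85 and 2.10 FPKM, and within the rule. DDX4, a helicase that defines germ cells, is listed at 0 in F5 and at 0.0503 FPKM in F1. Their part in the results below was not tested.

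The hormone receptors and the cyclic AMP pathway showed changes in both directions, among receptors and among the enzymes that break cyclic AMP down. LHCGR, the luteinizing hormone receptor, stood at 32.9 FPKM in F5 and 494 in F1, 15.0-fold higher (14.2 to 15.9). FSHR, the receptor of follicle-stimulating hormone, stood at 47.6 and 29.0 FPKM, 1.64-fold lower (1.55 to 1.74) and within the size rule. In F5 proximal cells FSHR was thus the higher of these receptors per length, and in F1 LHCGR was. ADCYAP1R1 (ENSGALG00000005223, chromosome 2, 1340187 to 1469658), the receptor of the peptide PACAP, stood at 0.175 FPKM on 5 reads and at 7.45 FPKM on 231 reads, 42.7-fold higher (18.04 to 133). MC5R, a melanocortin receptor, went the other way, from 8.23 to 1.31 FPKM, 6.30-fold lower (4.03 to 10.3). Receptors were thus among the most changed members of the pathway, and in both directions.

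Phosphodiesterases, which split cyclic nucleotides, also changed in both directions. PDE4D (ENSGALG00000014727, chromosome Z, 18112317 to 18254795), an enzyme specific for cyclic AMP, stood at 7.52 and 91.5 FPKM, 12.2-fold higher (11.0 to 13.5). PDE10A stood at 3.77 and 0.553 FPKM, 6.82-fold lower (4.62 to 10.4), and PDE7B at 7.58 and 1.84 FPKM, 4.13-fold lower (3.19 to 5.39). GRK5, a kinase that desensitises receptors, stood at 2.53 and 9.73 FPKM, 3.84-fold higher (3.36 to 4.41). The distal libraries gave the same direction for these 4 genes, with 7.25 and 95.6 FPKM for PDE4D. Of 26 members of the receptor and cyclic AMP list 6 were higher and 3 lower, with a median of -0.05 beside -0.27 over all genes, and 7 and 3 after scaling. Kinases and effectors downstream of cyclic AMP gave 0 of 8 past the rule as deposited.

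Genes of cholesterol synthesis and uptake were higher in F1 almost throughout. Of 25 members 14 were at least 2-fold higher and 0 lower, where all genes gave 4.46% and 9.85%, and all 25 lay above the median of all genes. The list's median was 1.12 as deposited and 1.42 after scaling, with 17 higher and 0 lower. HMGCS1 (ENSGALG00000014862, chromosome Z, 13514301 to 13524158), which makes HMG-CoA for the pathway, stood at 51.2 and 478 FPKM, 9.34-fold higher (8.87 to 9.84). DHCR7, which carries out a last step of cholesterol synthesis, stood at 24.4 and 102 FPKM, 4.16-fold higher (3.89 to 4.46). Early and late enzymes were therefore both among the highest.

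By role, 11 of 15 enzymes of the pathway were at least 2-fold higher, 2 of 6 uptake or transport genes and 1 of 4 regulators. NPC2 (ENSGALG00000010237, chromosome 5, 37207826 to 37210000), a small protein that hands cholesterol out of lysosomes, stood at 4631 and 18730 FPKM, 4.04-fold higher (4.02 to 4.07), and held the second highest FPKM of the named genes in F1. Its partner NPC1 stood at 221 and 198 FPKM and LIPA, the lysosomal lipase that frees cholesterol from its esters, at 9.80 and 8.34 FPKM. Both were within 2-fold, and both turned from slightly lower to slightly higher after scaling. FDFT1, squalene synthase, stood at 236 and 291 FPKM and MYLIP, which marks lipoprotein receptors for breakdown, at 92.3 and 101 FPKM, also within the rule.

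Steroid synthesis genes did not move together. STAR, which delivers cholesterol to the inner mitochondrial membrane, stood at 83.2 and 464 FPKM, 5.58-fold higher (5.35 to 5.83). CYP11A1, which cuts the side chain of cholesterol, stood at 133 and 322 FPKM, 2.43-fold higher (2.37 to 2.49). HSD3B2, which completes progesterone, stood at 498 and 1623 FPKM, 3.26-fold higher (3.21 to 3.30). These 3 carry cholesterol to progesterone, and CYB5A, an electron donor, was also higher, 2.90-fold (2.72 to 3.10).

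Beyond progesterone, 2 of the remaining enzymes stood at least 2-fold lower as deposited and 1, CYP17A1, after scaling. Aromatase was near absent. CYP17A1, which starts the path from progesterone to androgens, stood at 2.59 FPKM on 71 reads and 0.135 FPKM on 4 reads, 19.2-fold lower (7.18 to 72.4). It is also a theca marker. HSD17B1, which reduces oestrone in other species, stood at 29.5 and 15.7 FPKM, within the rule. SRD5A3 stood at 33.9 and 13.3 FPKM, 2.56-fold lower (2.29 to 2.86), and was just within the rule after scaling. CYP19A1, aromatase, had 1 read in F5 and 0 in F1 proximal cells. GATA4, a transcription factor of gonadal cells, stood at 226 and 89.6 FPKM, 2.52-fold lower (2.41 to 2.64), while ESR1, an oestrogen receptor, stood at 4.96 and 18.5 FPKM, 3.73-fold higher (3.15 to 4.44). The other oestrogen receptor, ESR2, stood at 1.81 and 0.996 FPKM, and the progesterone receptor PGR had 2 and 4 reads. In all, 5 of 24 members were higher and 3 lower with a median of 0.04, and 5 and 2 after scaling.

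**Figure D2:**
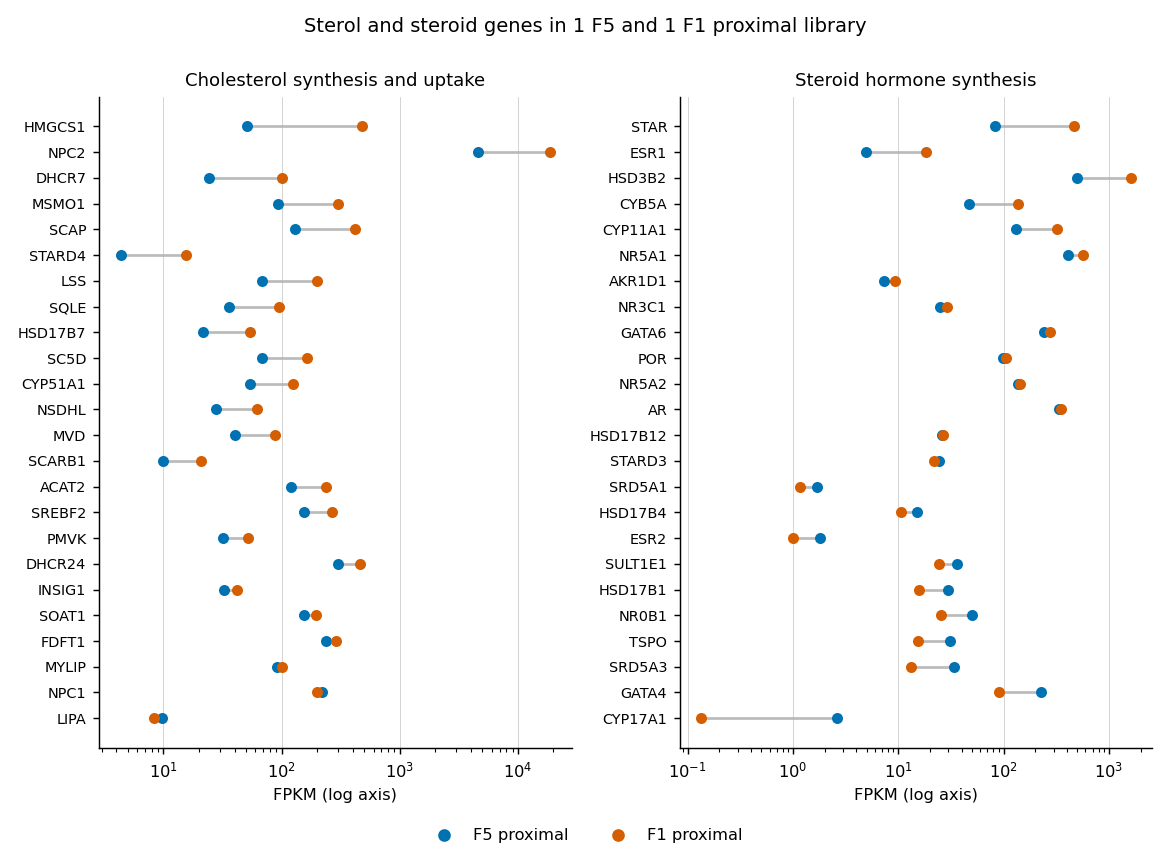
Levels in FPKM on a log axis of cholesterol genes on the left and the 24 steroid hormone genes on the right, in the F5 proximal library in blue and the F1 proximal library in orange, ordered by their difference. Orange lies right of blue for most cholesterol genes, while steroid genes spread from STAR at 83.2 and 464 FPKM to CYP17A1 at 2.59 and 0.135 FPKM.

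Genes of cell division were lower in F1 proximal cells. Of 49 mitosis members 43 were at least 2-fold lower and 0 higher, with a median of -1.54. After scaling the counts were 37 and 0, with a median of -1.28. All genes gave 9.85% lower as deposited and 5.86% after scaling. With a pseudocount of 5 FPKM 23 were lower and under a filter of 5 FPKM 27. SMC2, a condensin that compacts chromosomes, stood at 10.7 and 1.33 FPKM, 8.04-fold lower (6.51 to 10.0). CENPE, a kinetochore motor, stood at 12.3 and 1.66 FPKM, 7.40-fold lower (6.12 to 9.01), and CCNA2, a cyclin of S phase and mitosis, at 38.6 and 7.21 FPKM, 5.35-fold lower (4.62 to 6.22). The kinetochore and spindle genes gave 34 of 37 lower and the mitotic kinases and cyclins 9 of 12.

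CCNB2, a partner of the mitotic kinase CDK1, stood apart from this list. It stood at 104 FPKM in F5 and 97.7 in F1 proximal cells, 1.07-fold lower (1.02 to 1.12), and turned slightly higher after scaling. In distal cells it stood at 35.4 and 5.80 FPKM. CDK1 itself stood at 64.5 and 21.5 FPKM in proximal cells, 2.99-fold lower (2.67 to 3.36). CDC20 and ESPL1, which drive the exit from metaphase, stood at 79.9 and 43.9 FPKM and at 40.7 and 27.6 FPKM, within the rule. The kinase BUB1B, which is on the mitosis and the oocyte list, stood at 16.0 and 7.57 FPKM.

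Replication genes were lower to a smaller extent. Of 46 members 22 were at least 2-fold lower and 0 higher, with a median of -0.89. The count was 16 after scaling and 13 with a pseudocount of 5 FPKM. MCM2, MCM3 and MCM5, parts of the replicative helicase, were between 3.37-fold (MCM2, 3.12 to 3.63) and 3.78-fold lower (MCM3, 3.46 to 4.13). TK1, which salvages thymidine, stood at 56.7 and 12.4 FPKM, 4.56-fold lower (3.83 to 5.44). PCNA, the sliding clamp, stood at 94.4 and 74.5 FPKM, and ORC3 and GINS3 stood slightly higher, at 7.56 and 11.2 FPKM and at 23.8 and 33.4 FPKM. By role, 12 of 21 origin and helicase genes, 4 of 7 nucleotide supply genes and 6 of 18 polymerase and clamp genes were lower. After scaling the counts were 9, 4 and 3.

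Among regulators of the cell cycle 12 of 32 were lower and 0 higher, but 4 were lower after scaling, 7 with ZP3 left out of the library totals, 7 under a filter of 5 FPKM and 0 with a pseudocount of 5 FPKM, so this count depends on the settings. FOXM1, a transcription factor of dividing cells, stood at 12.1 and 3.99 FPKM, 3.03-fold lower (2.60 to 3.53), and CDKN2C, a kinase inhibitor, at 6.09 and 0.857 FPKM, 7.10-fold lower (4.17 to 12.9). CCND1, a cyclin of G1, stood at 34.1 and 15.2 FPKM, 2.25-fold lower (1.87 to 2.71). CCND2 stood at 24.2 and 14.5 FPKM, CDKN1A at 3.25 and 1.87 FPKM and CDKN1B at 54.9 and 61.1 FPKM, all within 2-fold. BTG2, an inhibitor of growth, was at 147 and 232 FPKM. Of 10 inhibitors of the cycle 0 were higher and 2 lower, where all genes gave 4.46% and 9.85%. These counts are too small to set the inhibitors apart from all genes.

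In distal cells the same lists stood lower still, with 48 of 49 mitosis and 33 of 46 replication members at least 2-fold lower. Their distal medians were -2.56 and -1.58. Over all genes 17.8% were lower in distal cells, with a median of -0.40, beside 9.85% and -0.27 in proximal cells. List counts in distal cells were taken as deposited only. RRM2, a subunit of ribonucleotide reductase, stood at 45.9 and 13.8 FPKM in proximal cells and at 40.6 and 0.218 FPKM in distal cells. Whether the positions differ in this step has no test, since each of the 4 groups was 1 library.

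**Figure D3:**
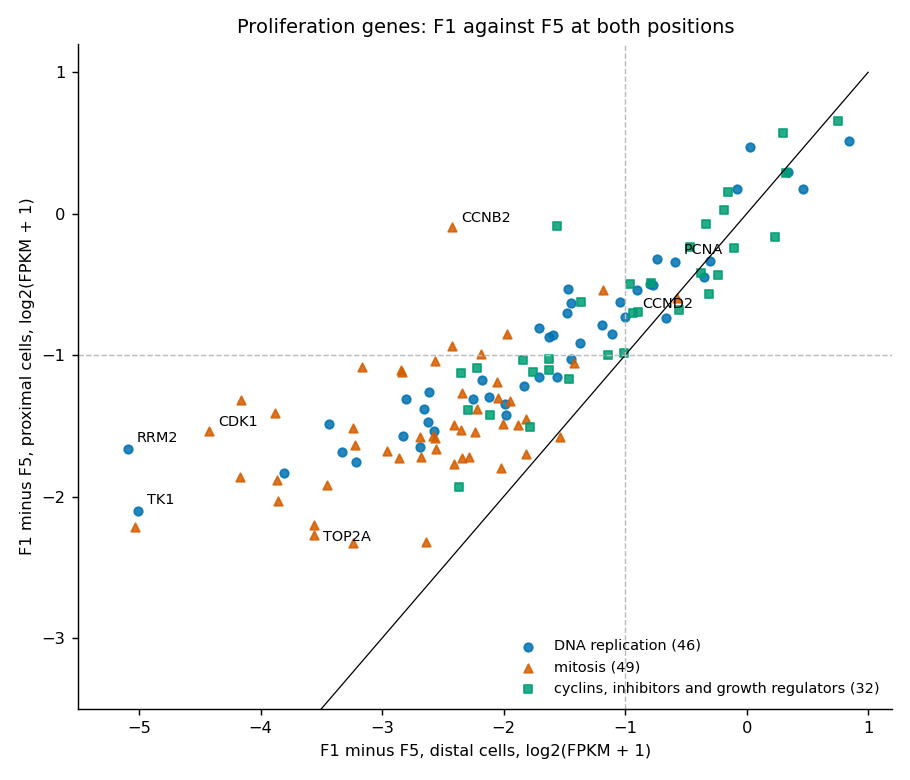
Each point is 1 member of the DNA replication (46), mitosis (49) or cell cycle regulator (32) list, with the F1 minus F5 difference of log2(FPKM + 1) in distal cells on the horizontal and in proximal cells on the vertical axis. The solid line marks equal differences and the dashed lines the 2-fold rule; most points lie above the solid line, and CCNB2 lies near 0 in proximal but not in distal cells.

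Subunit transcripts of the activin and inhibin family changed in both directions, and the hormones themselves were not measured. Inhibins pair the alpha subunit INHA with a beta subunit, and activins pair beta subunits. INHBA (ENSGALG00000012327, chromosome 2, 51170907 to 51183221), the beta A subunit, stood at 17.5 and 211 FPKM, 12.1-fold higher (11.0 to 13.3), while INHBB, the beta B subunit, stood at 378 and 28.5 FPKM, 13.3-fold lower (11.99 to 14.7). The beta B transcript was thus the more abundant per length in F5 and the beta A transcript in F1. FST, which binds activin, stood at 23.9 and 6.59 FPKM, 3.63-fold lower (3.24 to 4.08), and AMH, a hormone of small follicles, at 21.2 and 6.96 FPKM, 3.05-fold lower (2.70 to 3.46). INHA was 1.75-fold lower (1.73 to 1.77) and within the rule.

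Secreted antagonists of bone morphogenetic proteins moved in opposite ways. GREM1 (ENSGALG00000009724, chromosome 5, 29842277 to 29849273) stood at 1.56 FPKM on 22 reads and 20.9 FPKM on 320 reads, 13.4-fold higher (8.73 to 21.8). FSTL1 stood at 420 and 101 FPKM, 4.15-fold lower (3.94 to 4.38), and LTBP1, which stores TGF-beta in the matrix, at 5.001 and 0.509 FPKM, 9.82-fold lower (7.42 to 13.2). SMAD3 (ENSGALG00000007870, chromosome 10, 18282943 to 18345447), which carries activin and TGF-beta signals to the nucleus, stood at 44.4 and 191 FPKM, 4.30-fold higher (4.12 to 4.49). SMAD9, of the branch of bone morphogenetic proteins, stood at 1.21 and 4.72 FPKM, 3.91-fold higher (2.69 to 5.82). By role, 4 of 7 ligands and 6 of 13 inhibitors were lower, and 2 of 10 receptors and SMAD proteins were higher and 0 lower. One of the 4 lower ligands is BMP15, the oocyte marker above. The whole list of 34 gave 4 higher and 10 lower, with 4 and 8 after scaling.

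Of 6 WNT and Hedgehog ligands and enhancers 3 were at least 2-fold lower in F1 and 1 was higher. WNT4, a ligand needed for ovarian fate in mammals, stood at 1600 and 237 FPKM, 6.75-fold lower (6.57 to 6.94). IHH (ENSGALG00000011347, chromosome 7, 21803719 to 21806885), the hedgehog ligand by which granulosa cells signal to theca cells in mammals, stood at 617 and 109 FPKM, 5.67-fold lower (5.39 to 5.96). RSPO3, which strengthens WNT signals, stood at 12.4 and 1.04 FPKM, 11.9-fold lower (8.45 to 17.2), and NOTUM, an enzyme that inactivates WNT ligands, at 6.89 and 1.39 FPKM, 4.95-fold lower (3.27 to 7.74). Higher were WNT16, at 6.32 and 26.2 FPKM, 4.14-fold higher (3.73 to 4.60), and the receptor FZD8, at 3.93 FPKM on 41 reads and 46.4 FPKM on 524 reads, 11.8-fold higher (8.59 to 16.7). Of 30 members 2 were higher and 4 lower, as deposited and after scaling. Receptors other than FZD8 and all 6 effectors and targets lay within 2-fold.

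**Figure D4:**
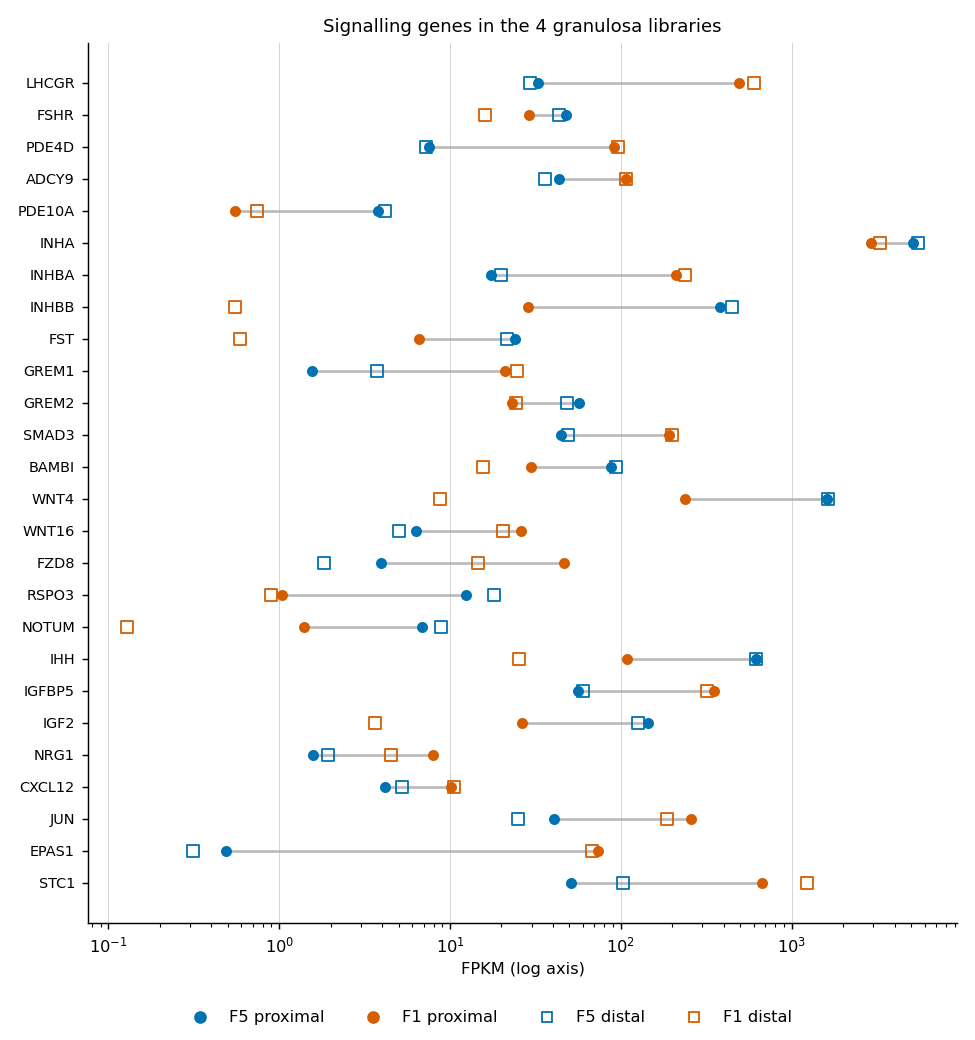
Levels in FPKM on a log axis of 26 signalling genes in all 4 libraries, with filled circles for proximal and open squares for distal cells, blue for F5 and orange for F1. Circles show LHCGR at 32.9 and 494 FPKM, INHBA at 17.5 and 211 FPKM and INHBB at 378 and 28.5 FPKM; the F1 distal square lies far below the F1 proximal circle for INHBB, FST, WNT4 and NOTUM.

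Other growth factor genes showed 5 of 29 members higher and 2 lower, and 6 and 1 after scaling. STC1 (ENSGALG00000000364, chromosome 22, 1142287 to 1149360), a secreted glycoprotein hormone, stood at 51.0 and 672 FPKM, 13.2-fold higher (12.2 to 14.3). IGFBP5, which binds insulin-like growth factors, stood at 56.4 and 349 FPKM, 6.18-fold higher (5.77 to 6.64), and NRG1, a ligand of ErbB receptors, at 1.57 and 7.96 FPKM, 5.06-fold higher (3.86 to 6.73). IGF2 (ENSGALG00000006555, chromosome 5, 13148583 to 13163279), a growth factor, stood at 144 and 26.5 FPKM, 5.45-fold lower (5.08 to 5.85). Receptors gave 0 of 7 past the rule as deposited. The insulin-like growth factor and 2 of its binding proteins, IGFBP5 and IGFBP3, thus moved in opposite directions.

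Transcription factors that respond quickly to signals were mostly within 2-fold, and JUN and EGR1 were higher. JUN stood at 40.9 and 257 FPKM, 6.29-fold higher (5.79 to 6.84), and EGR1 at 0.992 and 6.53 FPKM, 6.58-fold higher (4.74 to 9.37). In all 2 of 18 were higher and 1, KLF3, lower, and 2 and 0 after scaling. EPAS1, a subunit of the hypoxia-inducible factors, stood at 0.486 FPKM on 21 reads and 73.0 FPKM on 3415 reads, 150-fold higher (98.2 to 243). HIF1A, its relative, stood at 16.4 and 11.6 FPKM, and VEGFA, a target of both in other cells, at 155 and 246 FPKM, both within the rule. Glycolytic enzymes gave 2 of 21 higher, the hexokinase HK2 at 2.31 and 12.5 FPKM and the enolase ENO2 at 0.264 and 6.79 FPKM. The lactate dehydrogenase LDHA, at 32.1 and 12.6 FPKM, was the 1 lower enzyme. After scaling 3 of these enzymes were higher and 0 lower, with LDHA just within the rule. The lactate carrier SLC16A1 stood at 216 and 80.7 FPKM, 2.68-fold lower (2.60 to 2.76). The hypoxia and glucose list as a whole gave 3 of 41 higher and 4 lower, and 5 and 1 after scaling.

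Of the ovulation list 15 genes passed the filter, 0 higher and 3 lower. VCAN, a proteoglycan that binds hyaluronan, stood at 50.9 and 17.8 FPKM, 2.86-fold lower (2.75 to 2.97), CEBPB, a transcription factor of the ovulatory response in mice, at 20.9 and 6.52 FPKM, 3.21-fold lower (2.59 to 3.995), and EDN1, a peptide that contracts vessels, at 5.43 and 2.10 FPKM. After scaling 1 was higher, the hyaluronidase HYAL2 at 15.2 and 31.2 FPKM, and 2 lower.

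Extracellular proteases and their inhibitors changed more often than most lists and in both directions, with 8 of 29 higher and 8 lower as deposited and after scaling. HTRA1, a secreted serine protease, stood at 3.59 and 115 FPKM, 32.1-fold higher (26.4 to 39.3), while its relative HTRA3 stood at 153 and 24.1 FPKM, 6.34-fold lower (5.97 to 6.75). ADAMTS3, which trims procollagen, stood at 1.95 and 34.7 FPKM, 17.8-fold higher (15.1 to 21.2). ADAMTS9 and ADAMTS15, which cut proteoglycans, stood at 57.8 and 8.42 FPKM and at 259 and 46.9 FPKM, 6.87-fold (6.49 to 7.28) and 5.51-fold lower (5.28 to 5.77). PLAU, the urokinase that activates plasmin, stood at 4.19 and 25.9 FPKM, 6.19-fold higher (5.26 to 7.33), and TIMP2, an inhibitor of metalloproteinases, at 15.3 and 202 FPKM, 13.2-fold higher (11.4 to 15.2). Within the HTRA and the ADAMTS families, members thus stood on opposite sides.

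The matrix itself showed fewer changes, with 3 of 35 members higher and 7 lower, and 3 and 6 after scaling. FBLN1 (ENSGALG00000014233, chromosome 1, 70623970 to 70705990), a protein of basement membranes and elastic fibres, had 6 reads in F5 and 424 in F1 and stood at 0.108 and 7.03 FPKM, 65.3-fold higher (29.8 to 179). NID1, which links laminin to collagen IV, stood at 1.71 and 13.5 FPKM, 7.90-fold higher (6.46 to 9.75). CTHRC1, a secreted protein with a collagen repeat, stood at 325 and 15.8 FPKM, 20.5-fold lower (17.8 to 23.7). The collagen COL14A1 stood at 182 and 27.4 FPKM (listed as col14A1), 6.62-fold lower (6.37 to 6.88), and the fibrillin FBN2 at 8.60 and 0.832 FPKM (listed as fbn2), 10.3-fold lower (8.82 to 12.2). SPARC, a collagen-binding protein and the most abundant matrix gene, stood at 10224 and 6551 FPKM, 1.56-fold lower (1.55 to 1.57). Fibrillar and other collagens gave 0 of 8 higher and 3 lower, and basement membrane genes 1 of 11 higher and 0 lower.

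Of the junction, adhesion and cytoskeleton genes 3 of 43 were higher and 8 lower, and 3 and 5 after scaling. CLDN5, a tight junction protein that is also on the endothelial list, stood at 30.9 and 121 FPKM (listed as cldn5), 3.93-fold higher (3.49 to 4.44). EMCN, another endothelial gene, went the other way, from 10.6 to 3.67 FPKM. GJB1, a gap junction channel, stood at 19.5 and 1.39 FPKM, 14.1-fold lower (9.02 to 23.1), and STMN1, which takes microtubules apart, at 323 and 94.7 FPKM, 3.41-fold lower (3.22 to 3.62).

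Genes of lipid handling other than cholesterol gave 9 of 38 higher and 6 lower, and 9 and 5 after scaling. SCD, which makes monounsaturated fatty acids, stood at 27.9 and 102 FPKM, 3.65-fold higher (3.35 to 3.98), and FADS2, a desaturase of polyunsaturated fatty acids, at 4.77 and 16.5 FPKM, 3.45-fold higher (2.91 to 4.11). PLTP, which transfers phospholipid between lipoproteins, stood at 232 and 780 FPKM, 3.36-fold higher (3.26 to 3.46). The fatty acid carriers FABP4 and FABP5 stood at 49.5 and 3.05 FPKM and at 67.5 and 6.56 FPKM, 16.2-fold (10.9 to 25.2) and 10.3-fold lower (8.70 to 12.2). CEL, a lipase that splits cholesterol esters, stood at 107 and 2.61 FPKM, 40.9-fold lower (32.9 to 51.5), and LIPG, a phospholipase of lipoproteins, at 47.9 and 11.8 FPKM, 4.08-fold lower (3.74 to 4.45). The fatty acid enzymes past the rule were mostly higher, 5 against 1, while carriers gave 3 higher and 2 lower and lipases 1 and 2.

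Lysosomal genes gave 5 of 39 higher and 0 lower. ATP6AP1, an accessory subunit of the proton pump, stood at 17.6 and 81.1 FPKM, 4.61-fold higher (4.22 to 5.04), and ARSB, a sulfatase, at 5.83 and 19.5 FPKM, 3.35-fold higher (2.85 to 3.94). CTSA (ENSGALG00000006876, chromosome 20, 10874294 to 10878191), a carboxypeptidase, stood at 3907 and 8428 FPKM, 2.16-fold higher (2.14 to 2.17). PLBD1 (ENSGALG00000011826, chromosome 1, 48762192 to 48798716), related to phospholipases, stood at 1401 and 4578 FPKM, 3.27-fold higher (3.23 to 3.30), and is on no list. With NPC2 and CTSA it stood among the 10 named genes of highest FPKM in F1 proximal cells, as did the coat proteins ZP3, at 14379 and 82662 FPKM, and ZPD, at 1794 and 5452 FPKM. RFLB (ENSGALG00000015028, chromosome Z, 27483980 to 27486468) was abundant in F5 and lower in F1, at 7015 and 1354 FPKM, 5.18-fold (5.10 to 5.26).

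Secretory genes showed small counts, with 1 of 57 members higher and 4 lower and with 2 and 2 after scaling. CANX, a chaperone of glycoproteins, stood at 114 and 256 FPKM, 2.24-fold higher (2.17 to 2.30), and HSP90B1, another chaperone, at 603 and 287 FPKM, 2.10-fold lower (2.06 to 2.14). KDELR3, which returns proteins to the endoplasmic reticulum, stood at 55.7 and 11.4 FPKM, 4.87-fold lower (4.40 to 5.40). Apoptosis genes gave 1 of 24 higher, the survival gene BCL2 at 0.458 and 3.81 FPKM, and 1 lower, AIFM1 at 84.6 and 35.0 FPKM, and 2 higher and 0 lower after scaling. Immune and antimicrobial genes gave 0 of 16 higher and 1 lower.

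Of 29 chromatin genes 7 were lower and 0 higher, and 4 and 1 after scaling. All genes gave 9.85% lower, and 5.86% after scaling. DNMT3B (ENSGALG00000006634, chromosome 20, 10595952 to 10609143), which sets new methyl marks, stood at 144 and 30.9 FPKM, 4.67-fold lower (4.46 to 4.89). TET1, which oxidises them, stood at 15.7 and 3.84 FPKM, 4.08-fold lower (3.68 to 4.54), whereas its relative TET2 stood at 16.4 and 24.0 FPKM. UHRF1, which guides the copying of methyl marks during replication, stood at 16.9 and 4.84 FPKM, 3.50-fold lower (3.05 to 4.03). Gonad identity factors gave 1 of 16 higher, SOX8 at 0.633 and 2.61 FPKM, and 2 lower, NR2F1 at 46.4 and 18.4 FPKM and EMX2 at 69.0 and 30.5 FPKM, and both of these were within 2-fold after scaling.

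Genes better known from neurons and endocrine cells were among the highest. PCP4, a calmodulin-binding peptide, stood at 0.635 FPKM on 2 reads and 119 FPKM on 406 reads, 188-fold higher (51.6 to 1554). RPH3A, which acts in vesicle release, stood at 5.85 and 85.5 FPKM, 14.6-fold higher (12.7 to 16.9), and CCK, the peptide cholecystokinin, at 1.69 and 26.2 FPKM, 15.5-fold higher (9.77 to 26.1). PCSK2 and PAM, which mature peptide hormones, stood at 11.9 and 4.60 FPKM and at 19.2 and 7.31 FPKM, 2.58-fold (2.30 to 2.90) and 2.63-fold lower (2.36 to 2.92). This list gave 4 of 19 higher and 2 lower, and 4 and 0 after scaling. Other genes of the largest differences were KIAA1211, SYNDIG1L, TMEM200C, PIP5K1B, FAM84A and TRIM14, between 13.0-fold and 22.7-fold higher, and NEXN, EMP1, KCNAB1 and DPYSL3, between 9.31-fold and 13.2-fold lower.

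Transport genes of the solute carrier families gave 9 of 140 higher and 19 lower, and 15 and 14 after scaling. All genes gave 4.46% higher and 9.85% lower, and 6.54% and 5.86% after scaling. SLCO3A1, an organic anion carrier, stood at 4.22 and 38.4 FPKM, 9.10-fold higher (8.25 to 10.1). SLC7A5, an importer of large neutral amino acids, stood at 107 and 23.4 FPKM, 4.56-fold lower (4.16 to 5.01), and SLC12A2, a cotransporter of sodium, potassium and chloride, at 224 and 63.0 FPKM, 3.55-fold lower (3.43 to 3.69). Antioxidant genes gave 2 of 31 higher, among them the secreted peroxidase GPX3 at 393 and 972 FPKM, 2.47-fold (2.40 to 2.54), and 3 lower, among them catalase, CAT, at 13.4 and 5.89 FPKM. These 3 were within 2-fold after scaling.

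Genes of the protein synthesis machinery moved little one by one, yet ribosomal proteins shared a direction. Of 64 cytosolic ribosomal protein genes 0 were past the rule, and all 64 lay above the median of all genes, with a median of 0.44 as deposited and 0.75 after scaling, when 4 were higher. RPLP0, of the ribosomal stalk, stood at 1276 and 2159 FPKM and RPSA, of the small subunit, at 704 and 595 FPKM, the ends of the list's range. Reads of such genes can be shared with near-identical copies. The 57 mitochondrial ribosomal proteins gave 0 past the rule with a median of -0.13, and 1 was higher after scaling. Of 50 nuclear genes of oxidative phosphorylation 1 was higher, NDUFA4 at 119 and 275 FPKM, and 0 were lower, with a median of -0.0047. Translation factors gave 0 higher and 1 lower of 47, aminoacyl-tRNA synthetases 0 and 0 of 29, the proteasome 0 and 2 of 35, the spliceosome 1 and 1 of 54, and cytosolic chaperones 0 and 1 of 30. Above the median of all genes lay 42 oxidative phosphorylation, 39 mitochondrial ribosomal, 31 translation factor and 27 proteasome genes. The synthetases, spliceosome and chaperones had 12, 9 and 8 genes above it, fewer than below it.

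**Figure D5:**
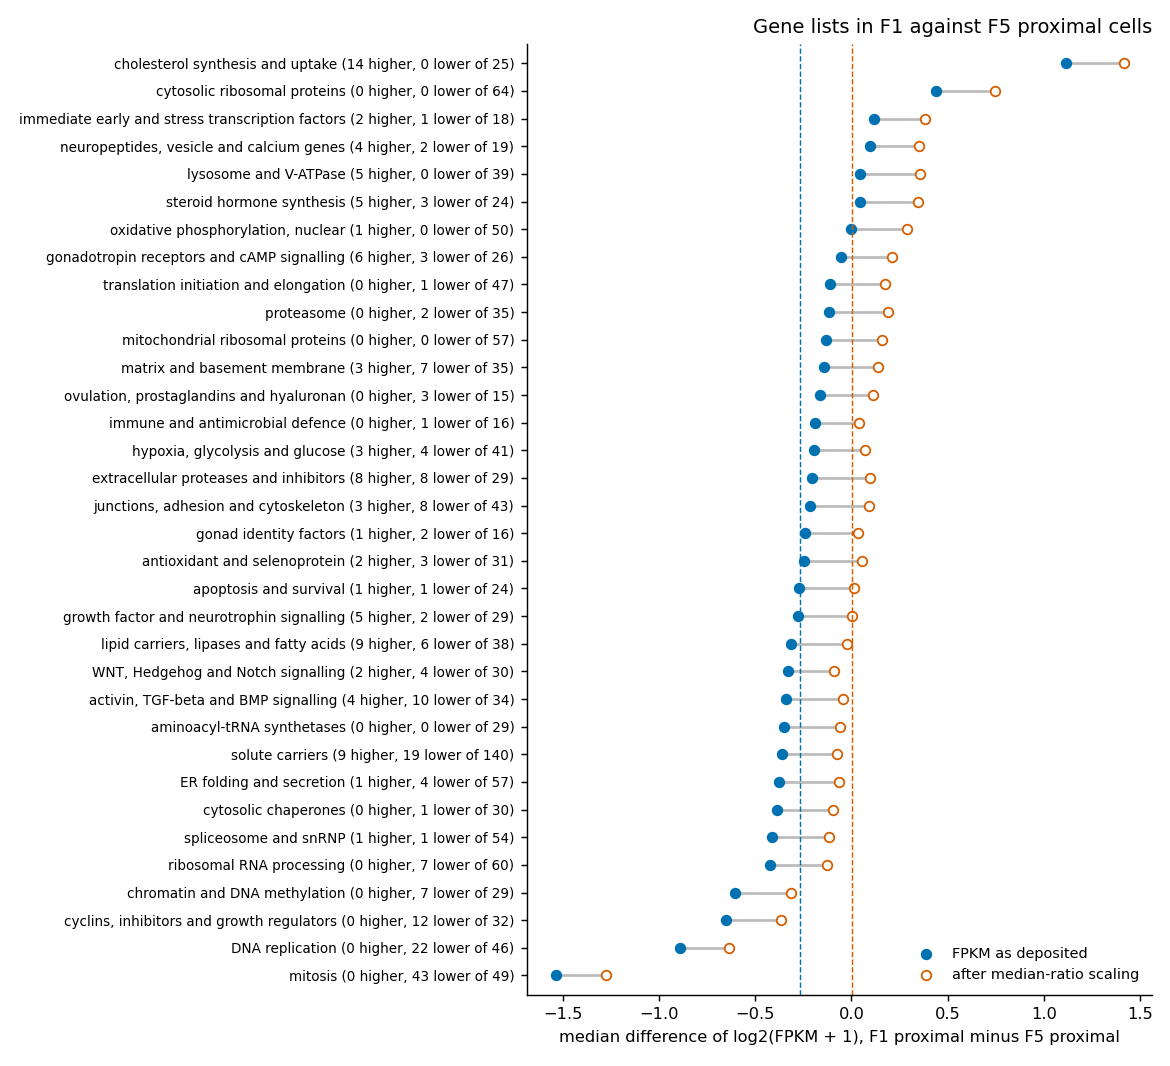
Median difference of log2(FPKM + 1), F1 proximal minus F5 proximal, for each list with at least 12 genes tested, cell type marker lists left out. Filled blue is as deposited and open orange after median-ratio scaling. Dashed lines mark the medians of all genes at -0.27 and 0.00. The label gives how many genes were at least 2-fold higher or lower as deposited; cholesterol synthesis lies highest at 1.12 and mitosis lowest at -1.54.

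In the list of ribosomal RNA processing a few neighbouring rows stood apart by the size of their folds, and the list's count did not. Of 60 members 0 were higher and 7 lower, where all genes gave 4.46% and 9.85%. Of the 7, 5 were RRP7A, RRP36, RRP15, RRP12 and RRP1B. Their folds ran from 18.5-fold for RRP12 (15.1 to 22.9) to 42.97-fold for RRP15 (20.6 to 108), all lower. RRP7A stood at 31.7 and 1.12 FPKM in proximal and at 30.0 and 1.16 FPKM in distal cells. These genes lie on chromosomes 1, 3 and 6 and fill consecutive rows of the deposited table, which is in order of name. The row before them is RRNAD1, at 3.45 and 0.686 FPKM, and the rows that follow are RRP8, at 15.5 and 15.2 FPKM, and RRP9, at 35.98 and 9.32 FPKM. The files do not settle whether these rows are intact in the deposited table, so their folds are uncertain. Without the 5 the list gave 0 higher and 2 lower with a median of -0.37, beside -0.42 with them.

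The lowest differences of all tested rows belonged to a pair without a gene name, chosen here after their values were seen. ENSGALG00000026592 (chromosome 1, 100373556 to 100373705) stood at 15716 FPKM in F5 and 236 in F1 proximal cells, 66.7-fold lower (61.7 to 72.2), and at 13569 and 286 FPKM in distal cells. It is one of 8 neighbouring rows without a name on chromosome 1, all lower in F1 proximal cells and 6 of them at least 2-fold, while in distal cells not all of them stood lower. ENSGALG00000018386, on the mitochondrial genome (1297 to 2272), stood at 1051 and 24.6 FPKM in proximal cells, 42.8-fold lower (38.9 to 47.2), and at 1064 and 28.9 FPKM in distal cells. The 13 named genes of the mitochondrial genome lay between -0.63 and -0.02 on the log2 scale in proximal cells. All 3 tested mitochondrial rows without a name were lower there. ENSGALG00000018384 (2346 to 3966) stood at 1798 and 609 FPKM in proximal cells and at 1663 and 516 FPKM in distal cells. ENSGALG00000018387 (1228 to 1296) had 17 reads in F5 and 0 in F1 proximal cells. ENSGALG00000026592, ENSGALG00000018386 and ENSGALG00000018384 were lower at both positions. What kind of RNA these rows hold was not identified here, so they are not read as changes of protein-coding genes. The 5 RRP genes were also lower at both positions, and a link with these rows was not tested.

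Across all genes the distal libraries, which share no library with the proximal ones, gave most of the same calls. Of the genes higher in proximal cells 433, or 86.6%, were also at least 2-fold higher in distal cells, where 5.36% of all genes were (9.56% after scaling). Of those lower in proximal cells 1020, or 92.5%, were also lower in distal cells, where 17.8% were (10.7% after scaling). These overlaps were counted as deposited only. The labels do not say whether both positions came from the same follicles, so the overlaps do not stand for replicates. Another 970 genes were at least 2-fold lower in distal cells and not in proximal cells, and 168 were higher in distal cells alone by this rule. Genes past the rule in opposite directions numbered 6, all without a usable name.

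The named genes that fell furthest apart between positions were of 2 kinds. WNT4, INHBB, TMEM72, RRM2, COL14A1 (col14A1) and TK1 were lower in F1 at both positions and much less so in proximal cells. WNT4 stood at 1624 and 8.72 FPKM and INHBB at 449 and 0.554 FPKM in distal cells, against the proximal 1600 and 237 FPKM and 378 and 28.5 FPKM. CHRDL1, FRZB, CLDN5 (cldn5), C6orf132, PPDPF and HIST1H46 were higher in F1 at both positions, and less so in proximal cells, and for each the F5 proximal level was above the F5 distal one. CHRDL1, an antagonist of bone morphogenetic proteins, stood at 5.59 and 15.2 FPKM in proximal cells and at 0.426 and 21.1 FPKM in distal cells. FRZB, a secreted antagonist of WNT, stood at 43.1 and 83.7 FPKM in proximal and at 15.8 and 94.6 FPKM in distal cells.

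Genes with a usable name that were at 0 reads in one proximal library had few reads in the other. Among those at 0 in F5, FAM222A had the most reads in F1, 25, which is at least 7.70-fold higher against a floor of 3 reads per library. Among those at 0 in F1, CD3E, a T cell receptor subunit and leukocyte marker, had 31 reads in F5, at least 11.2-fold lower. The next were GNAT3 with 19 reads and FETUB with 16.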

How the data were processed

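Poly-A selected RNA was sequenced in 4 granulosa libraries, 1 per group. The authors deposited gene levels as FPKM, and TopHat2 2.0.12 and HTSeq 0.6.1 were used per the submitters' processing notes. Neither labels nor headers name a genome build, and coordinates are printed as listed in the files. Of 19311 rows, 2 without a gene were left out. Names were used for 11909 rows, where unique, present in RefSeq and not contradicted by chromosome.

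From the FPKM, whole reads were recovered for 16894 of 16894 genes above 0 (tolerance 1e-08). This was tested on simulated data, where 96.9% of 2997 genes were exact. Reads that share a common factor are understated. Differences used a pseudocount of 1 FPKM, which understates low genes. Intervals are Clopper-Pearson, and 3 reads per library was the floor for 0. The tools were Python 3.11.15, numpy 2.4.6, pandas 2.3.3, scipy 1.17.1 and matplotlib 3.10.9.

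Genes were named by rule: the 15 highest and 15 lowest with at least 5 FPKM, the 10 most abundant per library, 8 at 0 per direction, 6 per direction by position, the 4 highest and 4 lowest of each list, and a standing set. NR5A1, RRNAD1, RRP8, RRP9, PSMC5, SPCS1 and markers at or near 0 were added after values were seen. Members, lists and rules were chosen with earlier results of these data known. A promoter motif search was not run. Some members of the lists are counted but not reported here.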

Additional observations from a re-analysis of the deposited data

Results flagged for a closer look

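Among named genes, 4 went in opposite directions from F5 to F1 at the 2 positions both as deposited and after median-ratio scaling, with counting intervals of the deposited ratios that leave out 1 at both positions. STC2, a secreted glycoprotein, stood at 5.07 and 2.65 FPKM in proximal cells and at 6.51 and 8.94 FPKM in distal cells, a difference between positions of -1.14 on the log2 scale. FARS2, the mitochondrial phenylalanine tRNA synthetase, stood at 8.29 and 10.8 FPKM against 9.83 and 5.49 FPKM, a difference of 1.09. B2M, the light chain of class I molecules, stood at 522 and 595 FPKM against 641 and 437 FPKM, a difference of 0.74. RPS7, a ribosomal protein, stood at 256 and 278 FPKM against 370 and 261 FPKM, a difference of 0.62. After scaling the distal difference was only -0.082 for B2M and -0.030 for RPS7, so both then stood almost level between F5 and F1 in distal cells. With 1 library per group, these differences between positions were not tested.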

How the results depend on the processing

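Over 9 alternative settings, genes at least 2-fold higher numbered 283 to 733 and genes lower 463 to 1551, and the median difference lay between -0.31 and 0.00. A pseudocount of 5 FPKM gave 283 higher and 463 lower, and with a filter of 5 FPKM the genes at least 2-fold lower in F1 proximal cells numbered 727. Median-ratio scaling gave 656 lower and a median of 0.0041, and library totals without ZP3 a median of -0.14. Of 348 named genes 170 were past the 2-fold rule, and 120 of these were past it in every one of 7 settings. That 0 called genes changed direction carries no weight, since none of these settings could reverse a called difference. Pseudocounts and filters keep its sign, and median-ratio scaling shifted differences by 0.31. The settings without a filter, with a pseudocount of 0.1 FPKM and with plain ratios could not take a called gene below the rule. A pseudocount of 5 FPKM took 42 named genes below it and median-ratio scaling 22. Leaving out the RRP run, and counting genes of a single list only, were chosen after seeing the data. No paired analysis was possible because each group has 1 library and the result comes from no test, and F1 and F5 within each position are given side by side instead. The precision of low genes is limited by their reads, and the spread between hens and follicles is not measured.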

Other observations

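By chromosome, Z held 510 tested genes, of which 57 were at least 2-fold higher in F1 proximal cells after median-ratio scaling (11.2%) and 41 lower (8.04%), beside 6.54% and 5.86% over all genes. In the fifth of genes with the highest mean FPKM, 223 of 2241 were higher (9.95%) and 105 lower (4.69%) after the same scaling. Loci numbered by the authors gave 74 higher and 77 lower of 1131 tested. These are descriptions of 1 pair of libraries.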
